A study of Mus musculus with 6 samples.

Results

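The genes described here encode the surface proteins by which blood progenitors are sorted and divided into subsets. There are 10 of them, chosen by name, and 8 had a row among the 12101 genes of the table, namely *Kit*, *Cd34*, *Fcgr3*, *Fcgr2b*, *Slamf1*, *Cd48*, *Eng* and *Cd9*. *Ly6a* and *Procr* had no row there, so no value is given for them. The cells were megakaryocyte–erythroid progenitors (MEPs), which form red blood cells and platelet-shedding megakaryocytes, sorted from the bone marrow of adult CD-1 Nanog-tg mice. All mice of both groups carried the M2-rtTA activator at *Rosa26* and a *Nanog* cDNA under a tetO promoter at *Col1a1*, so that the transgene can be induced in any tissue and not only in blood cells. The 3 dox-treated libraries came from mice given doxycycline (dox) in the drinking water for 5 days, and the 3 untreated libraries from mice of the same genotype without dox. Sex, exact age and whether a library pools several mice are not given in the sources used here, so p-values measure the spread between these libraries only.

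In the usual scheme for mouse marrow, progenitors lack lineage antigens and carry KIT, the receptor for stem cell factor. Stem cells and multipotent progenitors also carry Sca-1, the product of *Ly6a*, and the cells without it are divided by CD34 and by the IgG receptors CD16 and CD32. Common myeloid progenitors are CD34-positive with low CD16/32, granulocyte–macrophage progenitors are high for both, and MEPs are low for both. Finer schemes divide these gates by CD150 (*Slamf1*), CD48, endoglin (*Eng*), the endothelial protein C receptor (*Procr*) and the tetraspanin CD9. In this study precursors were separated on CD16/32 and CD34 within lineage-negative, KIT-positive, Sca-1-negative marrow, so the proteins of *Kit*, *Cd34*, *Fcgr3*, *Fcgr2b* and *Ly6a* were part of the gate. The part that gate placement had in their RNA levels was not tested. In bulk RNA, fewer cells of a type and less RNA per cell cannot be told apart.

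The libraries held between 11264803 and 16153600 reads on the listed genes, recovered from the deposited values. Expression is given in CPM, reads per 1000000 of the authors' normalized library size, and 1 read was worth between 0.0642 and 0.0910 CPM. *Nanog* was read first as a check of the groups, with at least 15959 reads in every dox-treated library and at most 13 in every untreated library. Dox-treated replicate 3 stood apart from its group. On the first principal component it lay at -14.8, against -57.5 and -56.3 for the other dox-treated replicates and 35.1 to 54.2 for the untreated ones.

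Tested with limma over 12088 genes, with Benjamini–Hochberg adjustment, 0 of the 8 marker genes passed an adjusted p of 0.05 in either direction, where 7.77% of all genes tested did, 4.59% higher and 3.18% lower. At an unadjusted p under 0.05 there were 3 of the 8, *Cd34* with the higher mean in dox-treated MEPs and *Fcgr3* and *Eng* with the lower, against 29.2% of all genes, 15.6% higher and 13.6% lower. With voom precision weights the count past the adjusted threshold was also 0, but array quality weights called 2 higher (*Cd34*, *Cd9*) and 3 lower (*Kit*, *Fcgr3*, *Eng*), and a mean-variance trend called 1, *Eng*. For 4 of the 8 the groups were fully separated, against 35.9% of all genes tested. Only *Cd34*, 1 of the 8, lay above with dox, as 17.7% of all genes tested did, and *Kit*, *Fcgr3* and *Eng* lay below with dox, 3 of the 8, where 18.2% of all genes did. The median log2 fold change of the 8 was -0.28, and that of all genes tested was -0.03.

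**Figure D1:**
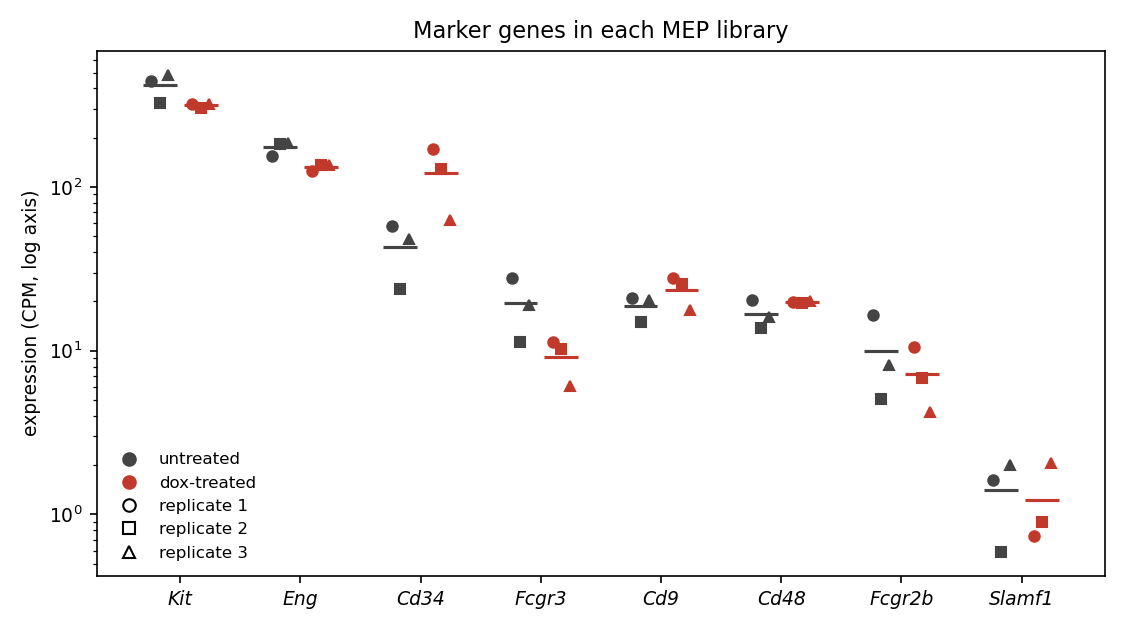
Expression of the 8 measured marker genes in every library, in CPM on a log axis, with untreated libraries in black, dox-treated libraries in red, a symbol for each replicate number and a bar at each group mean. *Cd34* was between 62.8 and 172 CPM in dox-treated and between 23.8 and 57.6 CPM in untreated MEPs, while the *Slamf1* libraries lay near 1 CPM and were mixed.

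*Kit*, on chromosome 5 of NCBIM37 from 75970941 to 76052747, encodes the receptor tyrosine kinase that marks all these progenitors. Dox-treated replicates 1, 2 and 3 had 320, 304 and 323 CPM, and untreated replicates 1, 2 and 3 had 443, 327 and 486 CPM. Every dox-treated library was below every untreated library, but untreated replicate 2 was close to the dox-treated ones. The mean was 316 ± 9.81 with dox against 419 ± 81.8 CPM without (SD, n = 3 each). On the log2 scale the difference was -0.39 (standard error 0.17, 95% interval -0.80 to 0.02, adjusted p = 0.19, limma). The two-sided exact permutation test gave p = 0.1, the smallest that 3 libraries against 3 allow. Relative spread differed between the groups, with a coefficient of variation of 3.11% with dox and 19.5% without. No 50-base word of its transcripts occurred in the coding transcripts of another gene.

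KIT hands its signal to SRC-family kinases, adaptors, phosphatases and the RAS and STAT5 pathways. Of 20 genes listed for this pathway 19 were tested, and 1 was higher and 0 were lower past the adjusted threshold (limma), with a median log2 fold change of 0.02. At an unadjusted p under 0.05, 2 of the 19 were higher and 4 were lower, where 15.6% and 13.6% of all genes were, and the 1 call of 19 stands beside 4.59% of all genes. The gene past the threshold was *Lyn*, a SRC-family kinase that binds KIT and the IgE receptor. It had 1179, 1331 and 1183 reads in dox-treated replicates 1, 2 and 3 and 535, 402 and 374 in untreated replicates 1, 2 and 3. *Lyn* rose from 35.1 ± 6.02 to 87.3 ± 11.6 CPM (SD, n = 3 each), 1.32 on the log2 scale (limma, adjusted p = 0.016). *Kitl*, the gene of the KIT ligand, had no row.

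*Cd34* encodes a sialomucin of stem and early progenitor cells and endothelium, and its locus is 196765015 to 196787486 of chromosome 1 (NCBIM37). It had 172, 129 and 62.8 CPM in dox-treated replicates 1, 2 and 3, and 57.6, 23.8 and 48.1 CPM in untreated replicates 1, 2 and 3. All dox-treated libraries were above all untreated ones, with dox-treated replicate 3 only just above untreated replicate 1. In reads these were 978 against 741. The mean was 121 ± 54.9 with dox against 43.2 ± 17.4 CPM without (SD, n = 3 each). In the fit the log2 fold change was 1.47 (standard error 0.48, 95% interval 0.28 to 2.65), which is 2.76-fold, with an adjusted p of 0.11 (limma). The exact permutation test gave p = 0.1 (two-sided). Without dox-treated replicate 3 the log2 fold change was 1.88 and the adjusted p was 0.035 (limma). With any other single library left out the log2 fold change was at least 1.08, and the adjusted p was above 0.05. The predicted gene *Gm16897* covers 148 bases, or 5.65%, of the *Cd34* exons on the opposite strand. Because the use of strand in counting is not stated, reads there are uncertain.

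The markers of stem cells and multipotent progenitors, cells that carry CD34 or lie close to those that do, were summed in each library beside *Cd34*. Of 14 listed genes 13 were tested, and 1 was higher and 0 were lower past the adjusted threshold (limma), with 9 of the 13 higher at an unadjusted p under 0.05, where 15.6% of all genes were, and a median log2 fold change of 0.94. The 1 gene was *Myct1* (log2 fold change 2.73, adjusted p = 0.037, limma), and without dox-treated replicate 3 the count was 9, while the higher calls over all 12088 genes went from 555 to 1801. The summed level was between 413 and 556 CPM in dox-treated and between 198 and 306 CPM in untreated MEPs. From highest to lowest, the 6 libraries came in the same order for the sum as for *Cd34*. The sum of mast cell and basophil markers, read further below, also came in that order, so the match was not particular to this list. *Hoxb5* had no row. The part of stem cells and multipotent progenitors in the *Cd34* level was not tested, nor was that of mast cells and basophils.

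Of 14 endothelial and stromal genes 8 were tested, and 4 were higher, as were 4.59% of all genes, and 0 were lower (limma), with a median log2 fold change of 2.13. The other 4, *Kdr*, *Tie1*, *Emcn* and *Robo4*, did not pass, with adjusted p between 0.080 and 0.63 (limma), and 5 of the 8 had every dox-treated library above, where 17.7% of all genes did. *Pecam1*, an adhesion molecule of endothelium, platelets and progenitors, rose from 15.9 ± 4.34 to 93.7 ± 41.5 CPM (SD, n = 3 each). *Col1a2*, a collagen chain, rose from 6.20 ± 1.98 to 79.3 ± 44.7 CPM (SD, n = 3 each), and *Pdgfrb* changed by 2.02 on the log2 scale (limma, adjusted p = 0.023). The sum of the list was between 115 and 360 CPM with dox and between 28.9 and 56.5 CPM without, lowest among the dox-treated libraries in replicate 3. Its order did not follow that of *Cd34*, with dox-treated replicate 2 above replicate 1 and untreated replicate 3 above replicate 1. *Cdh5*, *Cldn5*, *Col1a1*, *Cxcl12*, *Pdgfra* and *Lepr* had no row. Their part in the *Cd34* level was not tested. Among CD34-like sialomucins and selectin ligands, 6 of 7 listed genes were tested and 0 passed the threshold in either direction (limma), with 1 of 6 higher and 0 lower at an unadjusted p under 0.05, where 15.6% and 13.6% of all genes were. The most abundant of them was *Spn*, the leukocyte sialomucin CD43, at 552 ± 119 with dox against 454 ± 59.5 CPM without (SD, n = 3 each).

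**Figure D2:**
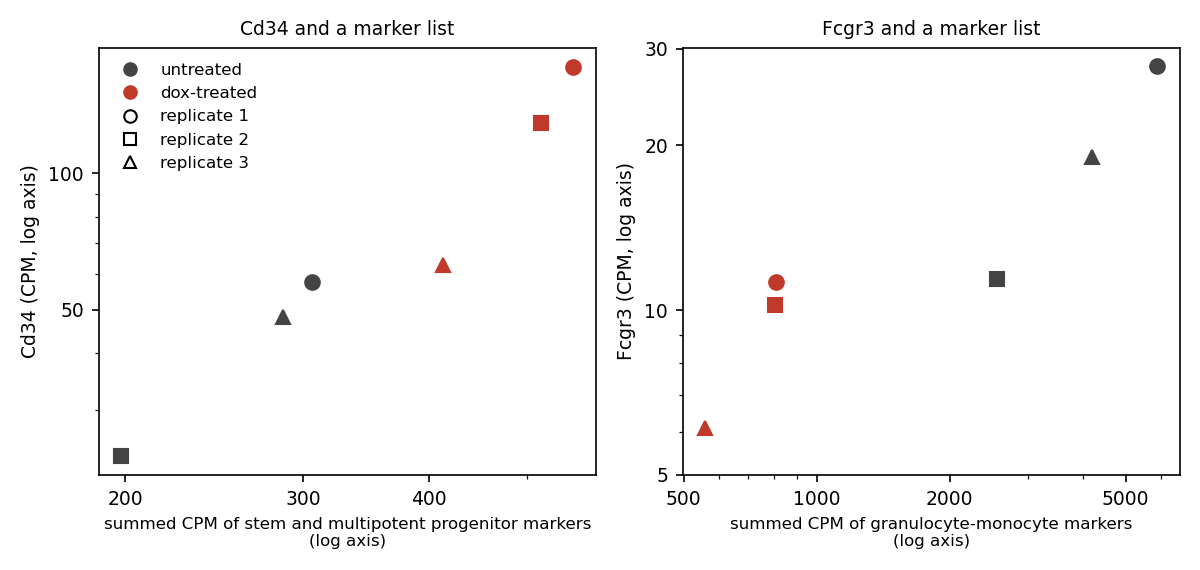
*Cd34* against the summed CPM of stem and multipotent progenitor markers (left) and *Fcgr3* against the summed CPM of granulocyte-monocyte markers (right), both axes logarithmic, 1 point for each library. Untreated libraries are black, dox-treated libraries are red, and the pairs of measures were chosen for display after their values were seen.

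*Fcgr3* encodes CD16, an activating low-affinity IgG receptor, and *Fcgr2b* encodes CD32, its inhibitory relative. Both lie on the minus strand of chromosome 1 of NCBIM37, *Fcgr3* from 172981300 to 172995066 and *Fcgr2b* from 172890689 to 172906678. The longest run of bases that a coding exon of each holds in common is 113 bases long. It sits at chr1:172984184-172984296 in *Fcgr3* and chr1:172896691-172896803 in *Fcgr2b*, inside exons with 255 coding bases. The run is shown, all in lower case because every base is shared, since a read that falls wholly inside it cannot be assigned by sequence alone:

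Fcgr3 and Fcgr2b: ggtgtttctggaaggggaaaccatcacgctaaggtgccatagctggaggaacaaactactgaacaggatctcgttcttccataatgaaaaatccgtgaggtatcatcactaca

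Of the 50-base words in *Fcgr3* coding transcripts 10.2% occurred in *Fcgr2b*, and of those in *Fcgr2b* 10.1% occurred in *Fcgr3*. The read length is not given in the sources used here. RSEM divides such reads between the genes by estimate, so the split between them is uncertain and their sum is given too.

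*Fcgr3* had 11.3, 10.2 and 6.10 CPM in dox-treated replicates 1, 2 and 3 and 27.9, 11.4 and 19.0 CPM in untreated replicates 1, 2 and 3. The groups did not overlap, but dox-treated replicate 1 and untreated replicate 2, with 153 and 154 reads, were nearly equal. The mean was 9.19 ± 2.73 with dox against 19.4 ± 8.28 CPM without (SD, n = 3 each). This is a log2 fold change of -1.03 (standard error 0.39, 95% interval -1.99 to -0.08, adjusted p = 0.15, limma, and p = 0.1 in the two-sided exact permutation test). *Fcgr2b* had 10.6, 6.77 and 4.24 CPM with dox and 16.5, 5.10 and 8.19 CPM without. Its libraries were mixed, with dox-treated replicate 1 above untreated replicates 2 and 3. As a log2 fold change it came to -0.39 (95% interval -1.65 to 0.87, adjusted p = 0.64, limma), and without untreated replicate 1 it was 0.06.

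Summed over both genes, the CD16/32 level was 21.9, 16.97 and 10.3 CPM in dox-treated replicates 1, 2 and 3 and 44.4, 16.5 and 27.2 CPM in untreated replicates 1, 2 and 3. The untreated libraries spread over both sides of the highest dox-treated library. The mean was 16.4 ± 5.79 with dox against 29.4 ± 14.1 CPM without (SD, n = 3 each), a log2 difference of -0.79 (p = 0.3, two-sided exact permutation test). Leaving out dox-treated replicate 3 brought the log2 difference to -0.49 and leaving out untreated replicate 1 to -0.44, so these libraries moved it by over 1.5 times. *Fcgr3* supplied 51.5%, 60.1% and 59.0% of the summed reads in dox-treated replicates 1, 2 and 3 and 62.9%, 69.1% and 69.9% in untreated replicates 1, 2 and 3. These shares did not overlap between the groups, and they depend on how reads common to both genes were divided.

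CD16/32 is high on granulocyte–macrophage progenitors, so granulocyte and monocyte markers were read beside it. All 15 listed genes were tested and all had a lower mean with dox. Of these 11 were lower past the adjusted threshold (limma) and 0 were higher, where 3.18% of all genes tested were lower. *Ly6c2*, a LY6 antigen of monocytes, fell from 126 ± 48.2 to 12.1 ± 1.19 CPM (SD, n = 3 each). *Elane*, the gene of neutrophil elastase, fell from 560.0 ± 191.5 to 59.5 ± 17.4 CPM (SD, n = 3 each), and *Cebpe*, a factor of granulocyte maturation, changed by -2.85 on the log2 scale (limma, adjusted p = 0.011). The summed level was between 559 and 810 CPM with dox and between 2562 and 5887 CPM without. The 6 libraries came in the same order for this sum as for *Fcgr3*. The part of granulocyte-monocyte cells in the *Fcgr3* level was not tested. Over all genes 384 were lower with every library and 1687 without dox-treated replicate 3. The count of 11 was 3, 6 and 12 without dox-treated replicates 1, 2 and 3 and 5, 8 and 1 without untreated replicates 1, 2 and 3.

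Of 13 other Fc receptor genes and signalling partners 5 were tested, all with a higher mean in dox-treated MEPs, and 2 were higher past the threshold (limma), as were 4.59% of all genes. *Ms4a2*, the beta chain of the IgE receptor of mast cells and basophils, rose from 2.99 ± 1.15 to 20.4 ± 8.45 CPM (SD, n = 3 each), with 249, 398 and 204 reads in dox-treated replicates 1, 2 and 3 and 43, 23 and 43 in the untreated ones. *Fcgrt*, the neonatal Fc receptor, rose from 0.803 ± 0.257 to 4.06 ± 1.72 CPM (SD, n = 3 each), with at most 14 reads in an untreated library. *Fcgr1*, *Fcgr4* and *Fcer1a* had no row.

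*Eng*, on chromosome 2 of NCBIM37 from 32502115 to 32538189, encodes endoglin (CD105), a co-receptor for TGF-beta family ligands that is carried by early erythroid progenitors. It had 125, 136 and 136 CPM in dox-treated replicates 1, 2 and 3 and 155, 183 and 187 CPM in untreated replicates 1, 2 and 3. Every untreated library was above every dox-treated one, and replicates lay close together. The mean was 132 ± 6.07 with dox against 175 ± 17.6 CPM without (SD, n = 3 each). In log2 terms the fold change was -0.40 (standard error 0.12, 95% interval -0.69 to -0.11), and its adjusted p of 0.091 (limma) was the smallest of the 8 genes. The exact permutation test gave p = 0.1 (two-sided). Leave-one-out values ran from -0.48 to -0.35. With a mean-variance trend the adjusted p was 0.042 (limma). In the annotation *Ak1* covers 124 bases of the *Eng* exons on the same strand and *Fpgs* covers 61 on the opposite strand, 3.20% and 1.58% of them, and both genes had rows, so reads there are uncertain.

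Of 14 TGF-beta and BMP receptor and ligand genes 7 were tested, and 1 was higher and 0 were lower past the threshold (limma), against 4.59% higher and 3.18% lower of all genes, with a median log2 fold change of 0.39. *Acvr2a*, a type II receptor for activins and BMPs, rose from 3.403 ± 0.370 to 12.2 ± 5.22 CPM (SD, n = 3 each), with an adjusted p of 0.045 (limma). *Acvrl1*, the type I receptor with which endoglin works in endothelium, had no row, nor had its ligand genes *Gdf2* and *Bmp10*. Of 16 erythroid markers all were tested, and 2 were lower and 0 were higher (limma), against 4.59% higher and 3.18% lower of all genes, with a median log2 fold change of -0.46. *Ermap*, an erythroblast membrane protein gene, fell from 860 ± 54.4 to 506 ± 52.7 CPM (SD, n = 3 each), and *Epb4.2*, a red cell membrane skeleton gene, changed by -1.58 on the log2 scale (limma, adjusted p = 0.035). Of the 16, 5 had a higher mean with dox, among them the globin gene *Hbb-b1*, whose near-identical copy makes its reads uncertain, at 1.21 and the heme synthesis gene *Alas2* at 0.75 on the log2 scale, named after their values were seen, and neither passed (unadjusted p = 0.036 and 0.035, limma). The summed erythroid level was 5089 and 4892 CPM in dox-treated replicates 1 and 2 but 9057 CPM in replicate 3, above the 7752 to 8321 CPM of the untreated libraries. *Eng* was at 136 CPM in dox-treated replicate 3, as in replicate 2. Without dox-treated replicate 3, 10 of the 16 erythroid markers were lower, while the lower calls over all 12088 genes went from 384 to 1687.

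*Slamf1* and *Cd48* are neighbours on chromosome 1 of NCBIM37, at 173697258 to 173731315 and 173612140 to 173635389, and encode members of the SLAM family. CD150, the product of *Slamf1*, binds itself and marks stem cells and early megakaryocyte-erythroid progenitors. CD48 binds CD244 and CD2 and is absent from most stem cells but present on committed progenitors. *Slamf1* had 10, 12 and 32 reads in dox-treated replicates 1, 2 and 3 and 21, 8 and 22 in untreated replicates 1, 2 and 3. The highest and the second lowest library were both dox-treated, and the groups overlapped throughout. A count of 8 reads has an exact 95% Poisson interval from 3.45 to 15.8 reads, which covers counting error only because PCR copies are not independent. The mean was 1.23 ± 0.719 with dox against 1.41 ± 0.731 CPM without (SD, n = 3 each). The fitted log2 change was -0.17 with a 95% interval from -1.56 to 1.22 (adjusted p = 0.86, limma), an interval that holds a 2-fold difference in either direction. The sign changed when dox-treated replicate 1 or untreated replicate 1 or 3 was left out.

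*Cd48* had 19.95, 19.7 and 20.1 CPM in dox-treated replicates 1, 2 and 3 and 20.5, 13.7 and 16.1 CPM in untreated replicates 1, 2 and 3. The dox-treated libraries were almost equal, with a coefficient of variation of 1.26%, and untreated replicate 1 lay above all of them. The mean was 19.9 ± 0.250 with dox against 16.7 ± 3.43 CPM without (SD, n = 3 each). On the log2 scale the difference was 0.27 (95% interval -0.13 to 0.67, adjusted p = 0.32, limma, and p = 0.4 in the two-sided exact permutation test). Leaving out untreated replicate 1 gave 0.42 and leaving out untreated replicate 2 gave 0.13.

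Of 10 other SLAM family and partner genes 3 were tested, all with dox-treated libraries above untreated ones, and 1 was higher past the threshold (limma). Over all genes tested these shares were 17.7% and 4.59%. *Cd84*, a self-binding SLAM receptor of platelets and mast cells among others, had 1167, 1385 and 779 reads in dox-treated replicates 1, 2 and 3 and 297, 234 and 277 in untreated replicates 1, 2 and 3. It rose from 21.9 ± 4.10 to 79.7 ± 27.1 CPM (SD, n = 3 each), 1.82 on the log2 scale (limma, adjusted p = 0.027). *Cd2* and *Slamf6* to *Slamf9* had no row.

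*Cd9* encodes a tetraspanin of platelets, megakaryocyte progenitors and stem cells, and spans 125410284 to 125444809 of chromosome 6 (NCBIM37). The level was 27.7, 25.4 and 17.8 CPM in dox-treated replicates 1, 2 and 3 and 20.8, 15.1 and 20.5 CPM in untreated replicates 1, 2 and 3. Dox-treated replicates 1 and 2 were above all untreated libraries, and dox-treated replicate 3 was below untreated replicates 1 and 3. The mean was 23.6 ± 5.19 with dox against 18.8 ± 3.23 CPM without (SD, n = 3 each). Its log2 fold change came to 0.32 (95% interval -0.22 to 0.86, adjusted p = 0.37, limma, and p = 0.3 in the two-sided exact permutation test). Without dox-treated replicate 3 it was 0.51 (adjusted p = 0.086, limma), without dox-treated replicate 1 it was 0.19 and without untreated replicate 2 it was 0.17. *Gm16749* on the opposite strand covers 30 bases, 1.47%, of its exons.

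**Figure D3:**
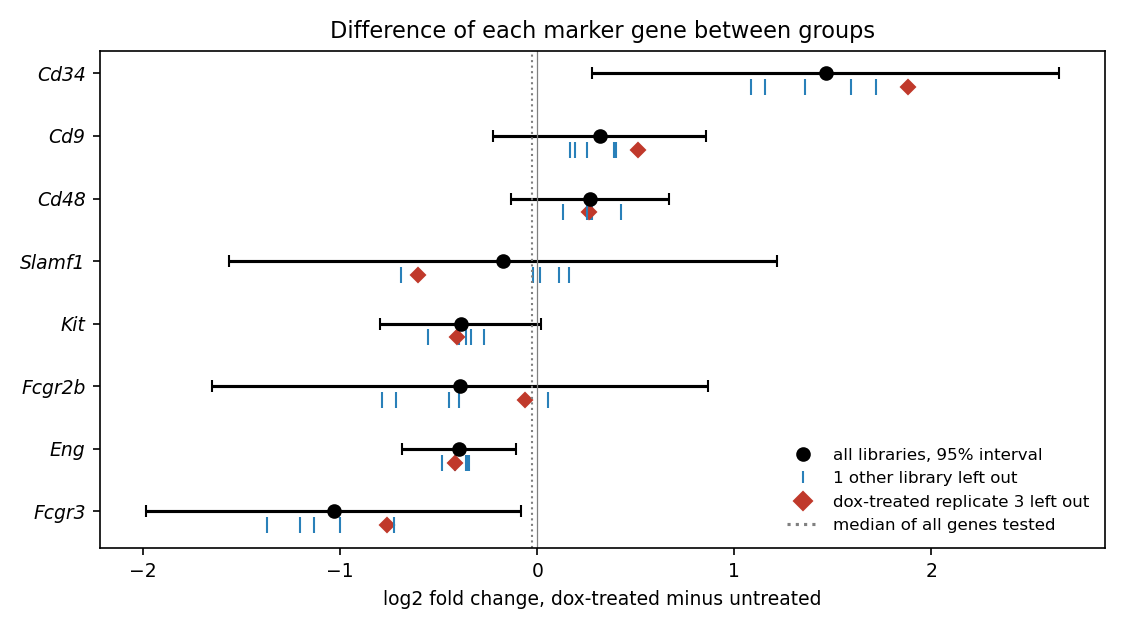
Log2 fold change of each measured marker gene, dox-treated minus untreated, with its 95% interval from limma (black), the values with 1 library left out (blue ticks), the value without dox-treated replicate 3 (red diamond) and the median of all genes tested (dotted line). The intervals of *Cd34*, *Eng* and *Fcgr3* did not reach 0, and the left-out values of *Slamf1* and *Fcgr2b* fell on both sides of 0.

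Of 21 other tetraspanin and partner genes 20 were tested, and 0 were higher and 1 was lower past the threshold (limma), with a median log2 fold change of 0.10 and 3 higher and 4 lower of 20 at an unadjusted p under 0.05, where 15.6% and 13.6% of all genes were. The gene past it was *Tspan5*, which escorts the protease ADAM10, at 5.84 ± 0.152 with dox against 10.7 ± 1.92 CPM without (SD, n = 3 each). Megakaryocyte markers were read beside *Cd9*. Of 14 listed 10 were tested, and 2 were higher and 1 was lower (limma), against 4.59% higher and 3.18% lower of all genes, with a median log2 fold change of 0.29. *Gp9* and *Gp1ba*, chains of the platelet receptor for von Willebrand factor, had log2 fold changes of 1.28 (adjusted p = 0.032, limma) and 0.90 (adjusted p = 0.049, limma). *Gp1bb*, another chain of that receptor named after its value was seen, had a log2 fold change of -1.32 that did not pass (adjusted p = 0.096, limma). *Pf4*, a platelet chemokine gene, was at -0.998 and did not pass either (adjusted p = 0.14, limma). The highest log2 fold change of the list, 2.52, also belonged to a gene that did not pass. At an unadjusted p under 0.05 (limma), 5 of the 10 were higher and 3 were lower, where 15.6% and 13.6% of all genes were. *Vwf*, the gene of that factor, fell from 37.2 ± 4.71 to 15.1 ± 3.01 CPM (SD, n = 3 each). The summed level was 484, 476 and 190 CPM in dox-treated replicates 1, 2 and 3 and between 130 and 167 CPM in the untreated ones, and *Ppbp*, *Tubb1*, *Gp6* and *Clec1b* had no row. The order of the sum did not follow that of *Cd9*, since dox-treated replicate 3 was above every untreated library in the sum but below untreated replicates 1 and 3 in *Cd9*. Their part in the *Cd9* level was not tested. Of 12 mast cell and basophil markers 6 were tested, and 3 were higher, as were 4.59% of all genes, and 0 were lower (limma), namely *Cpa3* (log2 fold change 2.93), *Ms4a2* (2.76) and *Slc18a2* (1.497). The list did not move as one, and 2 members with negative values, named after their values were seen, did not pass. These were *Gzmb*, the gene of granzyme B, at -3.42 (adjusted p = 0.053, limma) with separated groups, and *Mcpt8*, a basophil protease gene, at -0.93 (adjusted p = 0.20, limma). The summed level was between 223 and 252 CPM with dox and between 109 and 136 CPM without, and *Fcer1a*, *Hdc*, *Mcpt4*, *Cma1*, *Tpsb2* and *Tpsab1* had no row.

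For *Ly6a* and *Procr*, the related genes with rows can be given. Of 12 other LY6 family genes 2 were tested, *Ly6c2*, which was lower as given above, and *Ly6e*, which did not pass at a log2 fold change of 0.25 (limma). Over all genes 3.18% were lower. Of the 50-base words in *Ly6a* coding transcripts 4.42% occurred in another gene, most of them in *Ly6i*. Of 7 genes of the protein C pathway, which works at the endothelial surface with the *Procr* product, 4 were tested and 0 passed the threshold in either direction (limma), while 2 of 4 were higher and 0 were lower at an unadjusted p under 0.05, where 15.6% and 13.6% of all genes were. The most abundant was *F2r*, the thrombin receptor PAR1 through which activated protein C also signals, at 96.0 ± 29.8 with dox against 44.1 ± 8.56 CPM without (SD, n = 3 each) (adjusted p = 0.075, limma). *Proc*, the gene of protein C, had no row.

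The marker genes were also set against each other within each library, which does not depend on how libraries were scaled. The library held 1.86, 2.36 and 5.14 *Kit* reads for each *Cd34* read in dox-treated replicates 1, 2 and 3 and 7.69, 13.8 and 10.1 in untreated replicates 1, 2 and 3. The groups did not overlap, and dox-treated replicate 3 lay nearest to the untreated libraries. The log2 difference was -1.85 (p = 0.1, two-sided exact permutation test) and stayed between -2.29 and -1.55 over the 6 leave-one-out values. The log2 ratio of *Kit* to the CD16/32 sum was 4.33 ± 0.566 (SD, n = 3) with dox and 3.93 ± 0.534 (SD, n = 3) without, with overlapping libraries (p = 0.5, two-sided exact permutation test). This difference of 0.40 was 0.09 without dox-treated replicate 3 and 0.10 without untreated replicate 1. The log2 ratio of *Slamf1* to *Cd48* was -4.17 ± 0.774 (SD, n = 3) with dox and -3.73 ± 0.765 (SD, n = 3) without (p = 0.6, two-sided exact permutation test), and the difference ran from -0.88 without dox-treated replicate 3 to -0.08 without untreated replicate 3. That of *Slamf1* to *Eng* was -6.90 ± 0.746 (SD, n = 3) with dox and -7.13 ± 0.994 (SD, n = 3) without (p = 0.8, two-sided exact permutation test). The difference of 0.23 turned to -0.20 without dox-treated replicate 3 and to -0.35 without untreated replicate 2. Both *Slamf1* ratios rest on 32 reads or fewer per library. These 4 ratios and the CD16/32 sum are 5 comparisons of the same kind, and with the smallest p at 0.1 none can pass after adjustment.

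**Figure D4:**
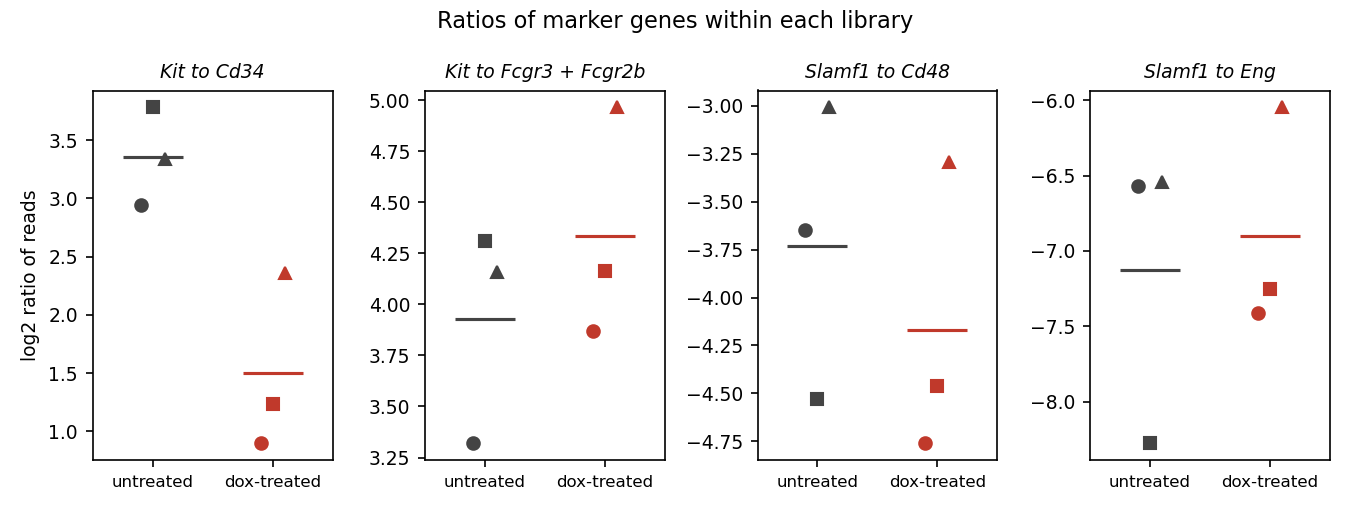
Log2 ratios of reads between marker genes in each library, untreated in black and dox-treated in red, with a symbol for each replicate number, a bar at the group mean and a separate vertical scale in each panel. The *Kit* to *Cd34* ratio was lower in every dox-treated library than in every untreated one, and the other ratios overlapped.

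Levels of different genes were compared per kilobase of annotated exon, over all annotated exons of a gene together. For *Fcgr2b* and *Cd9* these were 3849 and 2044 bases. Their coding transcripts held only 1650 and 1179 distinct 50-base words, so the ranks and overlaps below depend on the length used. In untreated MEPs *Kit* was highest at 71.8 CPM per kb (range 56.2 to 83.3) and *Eng* followed at 45.2 (range 40.0 to 48.3), without overlap. *Cd34* at 16.5 (range 9.08 to 21.98), *Cd48* at 14.1 (range 11.5 to 17.2) and *Fcgr3* at 11.2 (range 6.54 to 16.0) overlapped each other, and *Cd34* and *Fcgr3* also overlapped *Cd9* at 9.19 (range 7.38 to 10.2). *Fcgr2b* at 2.58 and *Slamf1* at 0.414 CPM per kb were lowest, and by this length neither overlapped its neighbours. In dox-treated MEPs *Kit* was at 54.1 CPM per kb (range 52.2 to 55.3) and *Cd34* at 46.2 (range 23.9 to 65.5), so that *Cd34* overlapped both *Kit* and *Eng*, the latter at 34.2 (range 32.4 to 35.2). By this length *Cd48* followed at 16.8, *Cd9* at 11.6 and *Fcgr3* at 5.28 CPM per kb, without overlap between them. They lay above *Fcgr2b* at 1.87 and *Slamf1* at 0.361.

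Antigens outside these 10 genes that are used to divide progenitors were read in the same fit. Of 15 listed all were tested, and 3 were higher and 1 was lower past the threshold (limma), against 4.59% higher and 3.18% lower of all genes, with a median log2 fold change of 0.94. *Cd36*, a fatty acid and thrombospondin receptor gained along the erythroid and megakaryocyte paths, rose from 6.50 ± 0.942 to 26.2 ± 7.09 CPM (SD, n = 3 each). *Itga6*, an integrin chain, rose from 42.4 ± 9.51 to 130 ± 42.5 CPM (SD, n = 3 each), and *Csf1r*, the receptor for macrophage colony-stimulating factor, fell from 12.8 ± 2.93 to 4.65 ± 0.970 CPM (SD, n = 3 each). Of 7 genes for lineage cocktail antigens 4 were tested, and 1, *Ly6c2*, given above, was lower and 0 were higher (limma). Over all genes tested 3.18% were lower and 4.59% higher, and 2 of the 4 had a higher mean with dox. *Cd3e*, *Ly6g* and *Ly6c1* had no row. Of 9 B cell markers 7 were tested and 1, the adaptor gene *Blnk*, was lower (limma), where 3.18% of all genes were. The median log2 fold change of the list was 0.09, and 4 of the 7 had a higher mean with dox. The list had a summed level between 10.1 and 28.3 CPM with dox and between 13.6 and 25.2 CPM without, and *Pax5* and *Ms4a1* had no row. Of 10 T and NK cell markers 2 were tested and 1, *Nkg7*, a granule protein gene, was lower (limma), where 3.18% of all genes were. *Nkg7* was at 8.54 ± 1.02 with dox against 38.8 ± 13.4 CPM without (SD, n = 3 each). The other tested member, *Il7r*, was at 1.07 on the log2 scale and did not pass (adjusted p = 0.31, limma).

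Most calls outside the 8 marker genes were lost when a library other than dox-treated replicate 3 was left out. This held over all genes tested, where 555 higher and 384 lower calls became 92 to 143 and 36 to 126. Of the 25 genes from these lists named above as past the threshold, 25 passed without dox-treated replicate 3, 7 without dox-treated replicate 1, 5 without dox-treated replicate 2, and 7, 9 and 3 without untreated replicates 1, 2 and 3 (limma). All 25 kept their direction each time. *Ly6c2* and *Cpa3* passed without any single library, but with replicate number as a block in the fit *Ly6c2* passed and *Cpa3* did not.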

How the data were processed

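RNA was sequenced from sorted MEPs of 3 dox-treated and 3 untreated replicates. Per the methods, the authors used Cutadapt for adapters, RSEM for quantification against Ensembl transcripts of NCBIM37, and limma for normalization. The deposited log2 values are CPM with 0.5 reads added. In the table every gene exceeded 1 CPM in at least 2 libraries. The filter, read length and strand setting are not given in the sources used here. Reads were recovered by scaling to each library's lowest value and were whole to within 6.64e-09, although RSEM gives estimates. How these were rounded is not given in the sources used here.

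The 12088 genes reaching 1 CPM in 3 or more libraries were fitted with limma 3.58.1 (R 4.3.3; lmFit, eBayes) on the deposited values, without block or weights, with Benjamini–Hochberg adjustment over all of them and a threshold of 0.05. The fit was also run on simulated counts with the same spread setting for every gene and no outlying library. Here dox-treated replicate 3 stood apart, so that run does not vouch for the fit on these libraries. Exact permutation tests used scipy 1.17.1, and tables pandas 2.3.3. Names, positions and exon lengths came from GENCODE M1 (NCBIM37), with older symbols matched through RefSeq synonyms. The marker genes and the lists were chosen with earlier results of these data known. From each list up to 3 genes past the threshold with the smallest p were named and, for pathway lists without any, the most abundant gene. Fold changes of genes with few reads are understated.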

Additional observations from a re-analysis of the deposited data

How the results depend on the processing

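The counts of marker genes past the threshold, 0 higher and 0 lower, also held with the other pseudocount, both other filters, robust eBayes, voom weights and all 3 other scalings. Array quality weights, which gave dox-treated replicate 3 a weight of 0.163, called 2 higher (*Cd34*, *Cd9*) and 3 lower (*Kit*, *Fcgr3*, *Eng*). A mean-variance trend called 1 lower and a threshold of 0.1 called 1 lower, *Eng* in both. With each library left out, 0 to 1 were higher and 0 were lower. The replicate block left 0 higher and 0 lower, and with voom weights 1 higher, *Cd34*. Of the 25 named list genes past the threshold the block left 2, *Cebpe* and *Ly6c2*, and 23 with voom weights, all 25 in the same direction. Without the block, *Gp1ba* did not pass with robust eBayes, voom weights, total reads as library sizes or median-of-ratios size factors. *Acvr2a* did not pass with voom weights or total reads as library sizes, nor did *Fcgrt* with voom weights. Over all genes the block left 53 higher and 29 lower of 555 and 384, the trend gave 909 and 747, array weights 2515 and 2601, and leaving out libraries 92 to 1801 and 36 to 1687. Labels do not say that numbers mark shared mice, and deviations of same-numbered libraries correlated at 0.02, -0.12 and -0.30. Signs changed with a library left out for *Fcgr2b* (-0.786 to 0.0565) and *Slamf1* (-0.69 to 0.16). Library sizes from total reads moved the median of all genes from -0.03 to 0.08, and turned the direction of none of the 8. The causes were not tested. *Slamf1* had the fewest reads of the 8, between 8 and 32.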
